A study of Mus musculus with 6 samples.

Results

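The genes described here are 10 members of the formin family of actin assembly proteins: Fhod1, Fhod3, Diaph1, Diaph2, Diaph3, Fmnl1, Fmnl2, Fmnl3, Daam1 and Daam2. They were found by symbol among the 34714 gene symbols counted in gastrocnemius (Gas) muscle, and all 10 were present. Counts of 9 of them were high enough to test, and Diaph3 was too low. The family was selected on the p-value of Fhod1 in the comparison reported below, which ranked 5 of 15788 genes, so the values of the members in that comparison are a description of these libraries and carry no independent weight.

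Gas RNA was sequenced from 3 wild-type (WT) mice and 3 miR-92b knockout (M92KO) mice, with 1 library per mouse. The M92KO mice carried a global deletion made in C57BL/6JGpt (strain C57BL/6JGpt-Mir-92bem22Cd549/Gpt), so miR-92b was missing from every tissue and not only from muscle fibres. The WT mice were age-matched C57BL/6 animals, and the labels do not call them littermates. All mice were 8 weeks old, untreated and on a standard diet, and the study used males. The supplementary methods describe an overnight fast before muscle was harvested, in a passage on mice at the end of a treatment, and do not separately mention the untreated mice sequenced here.

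Formins build unbranched actin filaments. A ring-shaped domain of the protein stays on the growing barbed end of the filament, while a neighbouring proline-rich stretch delivers actin bound to profilin. Many formins fold onto themselves and are inactive until released, and in striated muscle members of the FHOD and DAAM groups are known for roles in the assembly and upkeep of sarcomeres.

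The microRNA that the M92KO mice lack gives rise to a mature strand from each arm of its hairpin. They are printed here from RefSeq because the seed, which pairs with target mRNAs, is the part that can be looked for in the formin transcripts. Capitals mark the seed, bases 2 to 8.
miR-92b-3p: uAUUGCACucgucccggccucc
miR-92b-5p: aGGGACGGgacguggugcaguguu
Both are encoded on chromosome 3 (GRCm38, minus strand), miR-92b-3p from 89227126 to 89227147 and miR-92b-5p from 89227165 to 89227188. The seed of miR-92b-3p is shared by 6 mature mouse miRNAs in the table (miR-25-3p, miR-32-5p, miR-363-3p, miR-367-3p, miR-92a-3p and miR-92b-3p), and the other 5 are products of other genes.

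The longest annotated 3′-UTR of each formin was searched on the transcript strand for 7mer and 8mer matches, written as DNA. For miR-92b-3p the 8mer is GTGCAATA, and for miR-92b-5p it is CCGTCCCA, and each 7mer is the 8mer without its last base or without its first, so that an 8mer contains both 7mers. Among the 10 members, a match to miR-92b-3p was found in Daam1 and Diaph3. The 3′-UTR of Diaph1 held 1 match to miR-92b-5p, an 8mer at base 812 of 1740. The 3′-UTRs of Fhod1 and Fhod3 held a match to neither strand of miR-92b. Outside the 10, Fmn2 held 2 matches to miR-92b-3p, 1 of them an 8mer. Of the 13675 tested genes with a 3′-UTR, 13.8% held a match to miR-92b-3p and 5.56% held 1 to miR-92b-5p. The sites of Daam1 and Diaph3 are shown as the only matches to miR-92b-3p among the members, with the 7 matching bases in capitals.
Daam1: ttttaaatggcaataTGCAATAaa
Diaph3: agctaaatacatgatTGCAATAct
The Daam1 match lies on the plus strand of chromosome 12, from 71992304 to 71992310, at base 2416 of a 3′-UTR of 2445 bases. That of Diaph3 lies on the minus strand of chromosome 14, from 86656168 to 86656174, at base 149 of 956. Each pairs with bases 2 to 7 of miR-92b-3p and is followed by an A. The letters are a description and do not show that a site is used.

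The libraries held between 33160508 and 48209846 counts, and the 3 M92KO libraries were the smallest, so depth and genotype cannot be told apart. Expressed as CPM, counts scaled to the size of the library, the floor of 3 counts lay at 0.0629 to 0.0916, a limit set by counting error alone. The first M92KO library stood apart from the other two of its group, with a chi-square per degree of freedom over genes of 53.5 and 53.6 against 10.3 to 26.9 for the other pairs within a group. Results that moved most with it are given with and without it. Skeletal muscle fibre markers, 10 genes, summed to between 129079 and 149958 CPM in all 6 libraries. The Mir92b gene was not analysed here, so the genotype was not checked in the counts themselves.

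The counts of M92KO and WT muscle were compared with edgeR's quasi-likelihood test to ask which transcripts differ when miR-92b is missing. At an unadjusted p-value under 0.05, the threshold the study used, 1955 of 15788 genes (12.4%) differed. Among the formins, 3 of the 9 tested members (33.3%) were past this threshold, all 3 higher in M92KO muscle, where 5.47% of all genes were higher and 6.92% lower. Since Fhod1 led to the choice of the family, nothing is read from this share. No member and 0 of the 15788 genes passed after Benjamini-Hochberg adjustment in edgeR, where the smallest adjusted p-value was 0.124, while DESeq2's Wald test gave 322 genes (2.04%), Fhod1 (adjusted p = 6.96e-06) and Diaph1 (adjusted p = 0.0224) among them. Over the 14 alternatives tried, the adjusted p-value of Fhod1 ran from 6.96e-06 to 0.555, and in edgeR with all libraries it was 0.165. The 3 members were Fhod1, Fhod3 and Diaph1, which were also the 3 most abundant formins of the tissue. The median log2 fold change of the 9 tested members was -0.06, with 5 of the 6 others below 0, against a median of 0 to 2 decimals for all genes.

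**Figure D1:**
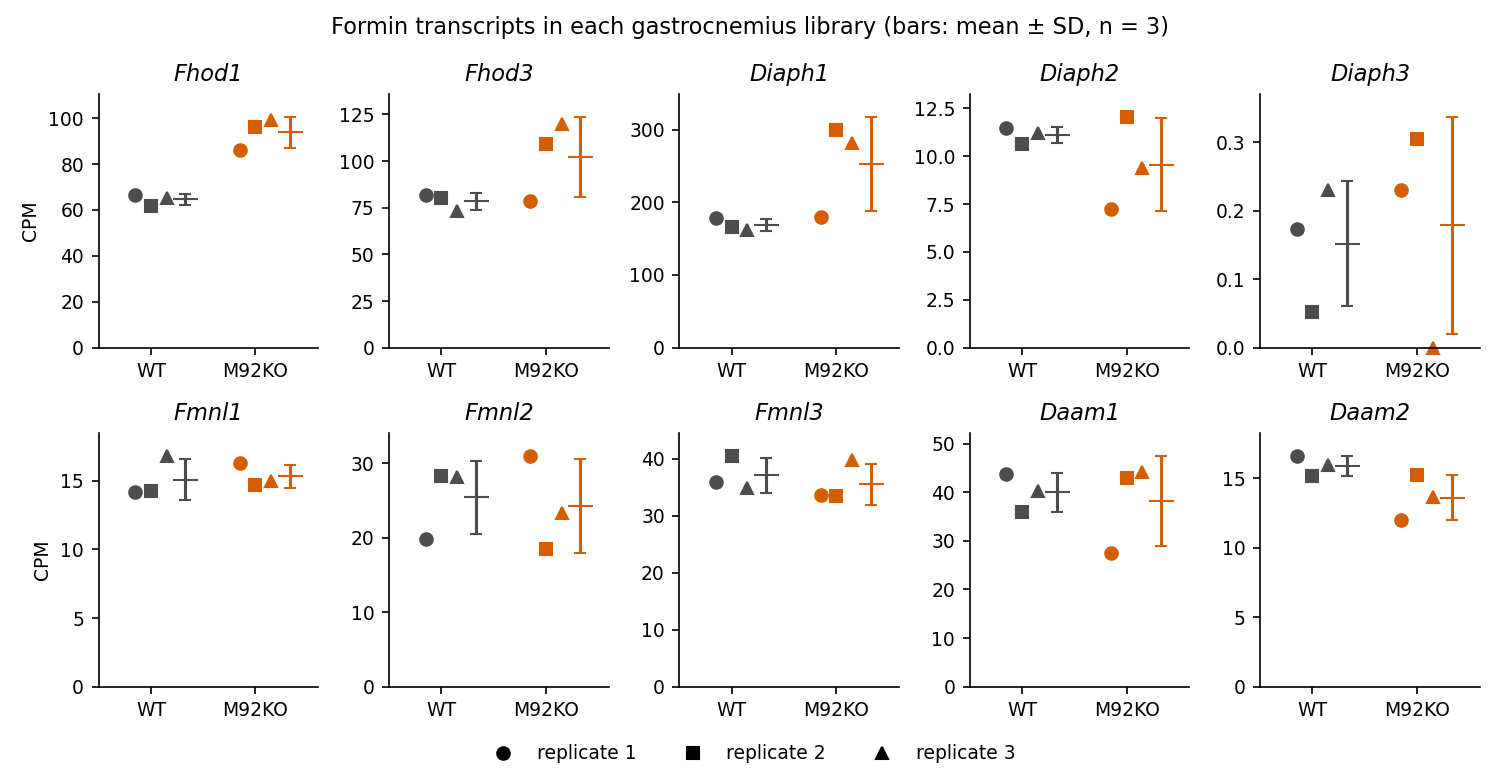
CPM of the 10 formins in each Gas library of 3 WT (grey) and 3 M92KO (orange) mice, with the mean ± SD beside the points and a separate linear axis from 0 for each gene. All M92KO points of Fhod1 and Diaph1 lie above the WT points, and the first M92KO library (circle) is the lowest of the 6 for Diaph2, Daam1 and Daam2.

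Fhod1 encodes a formin of the FHOD group that is expressed in striated and smooth muscle. The gene (ENSMUSG00000014778.10) is found on chromosome 8 (GRCm38, minus strand, 105329163 to 105347953). It stood at 66.7, 61.9 and 65.2 CPM in the WT libraries and at 86.2, 96.1 and 99.3 CPM in the M92KO libraries. All M92KO values lay above all WT values, and the smallest gap, between the first M92KO and the first WT library, was wider than the range within either group. The means were 64.6 ± 2.47 CPM in WT against 93.9 ± 6.80 CPM in M92KO muscle (SD, n = 3 each), and the fitted log2 fold change was 0.54 (SE 0.075, 95% interval 0.37 to 0.71, adjusted p = 0.165 from edgeR). Leaving out 1 library at a time moved it between 0.50 and 0.60, and its unadjusted p-value stayed under 0.05 in 6 of 6 fits. Exons of Fhod1 share 116 bases (2.49% of its exon length) with Tmem208 on the opposite strand. Tmem208 had a log2 fold change of 0.04 (SE 0.091, adjusted p = 0.913 from edgeR), and whether the counting used strand is not given in the sources used here.

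Fhod3 encodes the second FHOD formin, which is known for its role in the sarcomeres of the heart. The gene (ENSMUSG00000034295.10) lies on the plus strand of chromosome 18. Its WT libraries held 81.7, 80.2 and 73.3 CPM and its M92KO libraries 78.4, 109 and 120 CPM. The second and the third M92KO library lay above all WT libraries, and the first lay within the WT range, so the groups overlapped. The mean was 78.4 ± 4.51 CPM in WT against 102.3 ± 21.5 CPM in M92KO muscle (SD, n = 3 each), with the widest gap between the first M92KO library and the other two. The log2 fold change was 0.38 (SE 0.14, 95% interval 0.06 to 0.71, adjusted p = 0.338 from edgeR). Its unadjusted p-value stayed under 0.05 in 2 of 6 fits, those without the first WT and without the first M92KO library. It was lost without the second WT library (0.40), the third WT library (0.34), the second M92KO library (0.34) or the third M92KO library (0.26). Exons of Fhod3 share 309 bases (4.26% of its exon length) with Gm9955 on the opposite strand, which is not among the counted symbols.

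Diaph1 encodes mDia1, a formin of the Diaphanous group. The gene (ENSMUSG00000024456.16) is also found on chromosome 18, on the minus strand. It was measured at 178, 167 and 162 CPM in WT and at 179, 299 and 281 CPM in M92KO muscle. The groups did not overlap, but the first M92KO library was only just above the highest WT library, while the other two were far above. Means were 169 ± 8.14 CPM in WT against 253 ± 64.7 CPM in M92KO muscle (SD, n = 3 each), and the log2 fold change was 0.59 (SE 0.17, 95% interval 0.20 to 0.97, adjusted p = 0.247 from edgeR). It ran from 0.45 to 0.78 with each library left out, and 6 of 6 of these fits kept it past the unadjusted threshold. Across all genes tested, 8.77% had M92KO values that were all higher than the WT values, and among the 9 tested members these were Fhod1 and Diaph1. No tested member had M92KO values that were all lower, against 9.58% of all genes.

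Without the first M92KO library, which leaves 2 M92KO mice, the log2 fold changes were 0.60 for Fhod1, 0.54 for Fhod3 and 0.78 for Diaph1. In that fit the adjusted p-values from edgeR were 0.00558, 0.0109 and 0.00338, and 401 of 16058 genes (2.50%) passed the same adjustment. The library was not left out for a technical reason known from the labels, so these values stand beside those of all 6 libraries and do not replace them.

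**Figure D2:**
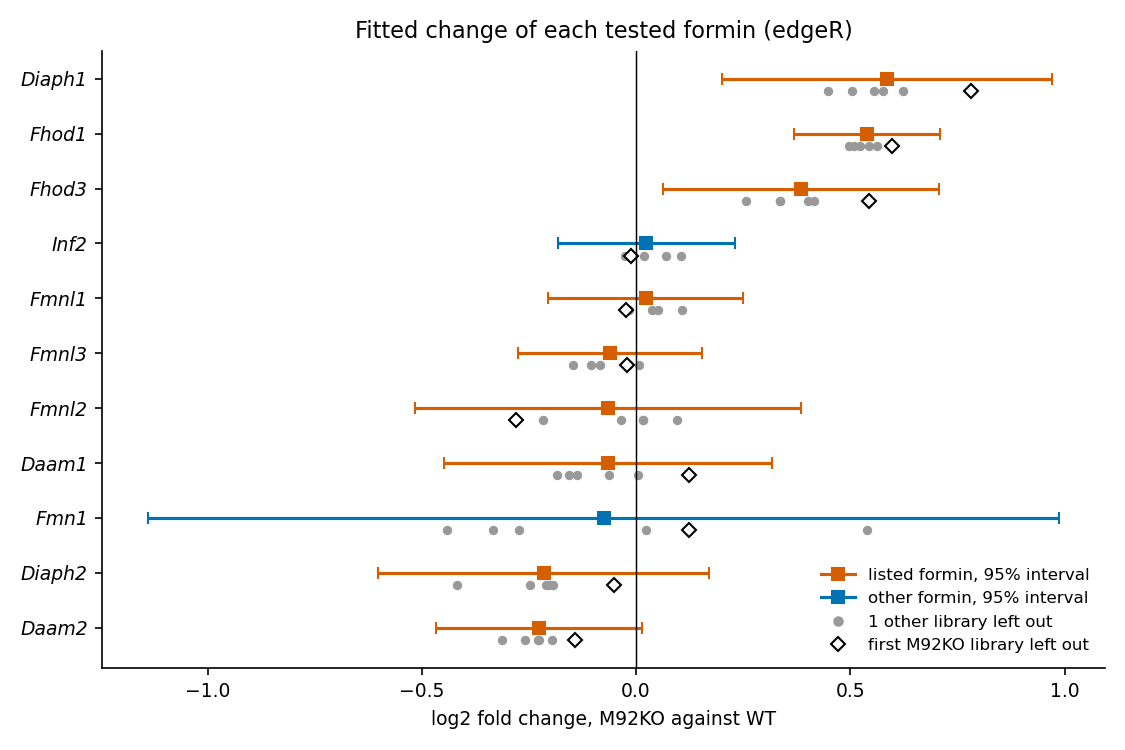
Log2 fold change of M92KO against WT for the 9 tested members (orange) and the 2 other tested formins (blue), with 95% intervals from edgeR and, under each, the values with 1 library left out. The intervals of Fhod1, Fhod3 and Diaph1 lie above 0 and the others include 0, and leaving out the first M92KO library (open diamond) gave these 3 genes their highest values.

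Diaph2, a second Diaphanous formin, lies on the X chromosome and encodes mDia3. It stood at 11.5, 10.6 and 11.2 CPM in WT and at 7.23, 12.1 and 9.39 CPM in M92KO muscle. The M92KO libraries held both the lowest and the highest of the 6 values. The log2 fold change was -0.22 (SE 0.17, 95% interval -0.60 to 0.17, adjusted p = 0.665 from edgeR), and it was -0.05 without the first M92KO library and -0.42 without the second, where its unadjusted p-value was under 0.05. Diaph3 encodes mDia2, which is known for its part in cell division. Its counts were 8, 2 and 11 in the WT libraries against 8, 10 and 0 in the M92KO libraries, so 1 library in each group was below the floor of 3 counts and no fold change is given. Cycling-cell markers, 8 genes, were low as well and summed to between 5.10 and 10.1 CPM in all libraries.

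The formin-like (FMNL) group comprises proteins that act in the cell cortex and in protrusions, and Fmnl1 is known from blood cells. Fmnl1 was nearly level between the genotypes, with 14.2, 14.3 and 16.8 CPM in WT and 16.3, 14.7 and 15.01 CPM in M92KO muscle. The M92KO values all lay within the WT range. Its log2 fold change was 0.02 (SE 0.0999, 95% interval -0.21 to 0.25, adjusted p = 0.954 from edgeR). Exons of Fmnl1 share 120 bases (2.46% of its exon length) with Gm20511 on the opposite strand, also not among the counted symbols. Leukocyte markers, 10 genes, summed to 99.3 to 111 CPM in WT and 82.3 to 110.1 CPM in M92KO muscle.

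Fmnl2 was the most variable of the 3, at 19.8, 28.2 and 28.2 CPM in WT and 31.0, 18.5 and 23.3 CPM in M92KO muscle. The first M92KO library was the highest of the 6 and the second the lowest, so the M92KO range enclosed the WT range. The log2 fold change was -0.06 (SE 0.20, 95% interval -0.52 to 0.39, adjusted p = 0.929 from edgeR) with all libraries and -0.28 without the first M92KO library. Fmnl3, a formin known from endothelial cells, had 35.9, 40.5 and 34.8 CPM in WT and 33.6, 33.4 and 39.7 CPM in M92KO muscle. The groups overlapped, and the log2 fold change was -0.06 (SE 0.094, 95% interval -0.27 to 0.15, adjusted p = 0.843 from edgeR). The intervals of all 3 FMNL genes include differences in either direction.

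The Dishevelled-associated formins Daam1 and Daam2 link Wnt signalling to actin. Daam1, with its match to miR-92b-3p, stood at 43.8, 35.9 and 40.2 CPM in WT and 27.5, 42.9 and 44.2 CPM in M92KO muscle. The first M92KO library was the lowest of the 6, and the other two lay within or just above the WT range. Its log2 fold change was -0.07 (SE 0.17, 95% interval -0.45 to 0.32, adjusted p = 0.915 from edgeR) and 0.12 without that library, so the sign depended on it. Daam2 had 16.6, 15.2 and 16.0 CPM in WT and 12.0, 15.2 and 13.6 CPM in M92KO muscle. The groups overlapped only through the second M92KO library, which was level with the lowest WT library. The log2 fold change of Daam2 was -0.23 (SE 0.11, 95% interval -0.47 to 0.01, adjusted p = 0.435 from edgeR), and -0.31 without the second M92KO library, where its unadjusted p-value was under 0.05.

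The mouse has other formins outside the 10. Inf2, which encodes a formin of the endoplasmic reticulum and mitochondria, stood at 46.1, 43.0 and 40.9 CPM in WT and 46.2, 38.8 and 47.0 CPM in M92KO muscle. The groups overlapped, with a log2 fold change of 0.02 (SE 0.090, adjusted p = 0.944 from edgeR). Fmn1 had between 14 and 47 counts in a library and a log2 fold change of -0.08 (SE 0.47, adjusted p = 0.967 from edgeR). Fmn2, with 7 to 18 counts, and Grid2ip, with 0 to 5 counts, were too low to test.

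To set the formins side by side, counts were divided by the union of annotated exon lengths and scaled to TPM, a level per transcript length that adds up to the same sum in each library. On this scale Diaph1 was the most abundant formin of WT Gas, with a level of 86.8 ± 6.17 TPM (SD, n = 3). Fhod1 followed at 45.1 ± 2.21 TPM and Fhod3 at 35.3 ± 2.83 TPM (SD, n = 3 each). Inf2 (29.0 TPM) and Fmnl3 (24.1 TPM) came next, and the ranges over mice of neighbours in this order did not overlap down to Fmnl3. Daam1 (16.1 TPM) and Fmnl2 (14.7 TPM) did not differ beyond their spread. Below them came Fmnl1 (10.04 TPM), Daam2 (5.31 TPM) and Diaph2 (3.13 TPM), each again apart from the next. Fmn1, Fmn2, Diaph3 and Grid2ip were all under 1 TPM on average. The order of the first 10 was the same in M92KO muscle. When the longest annotated transcript was used as the length instead, Daam2 (10.3 TPM) passed Fmnl1 (9.29 TPM), so the place of those genes depended on the length chosen.

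The summed level of all 14 formins was 283, 269 and 257 TPM in the WT libraries and 274, 362 and 364 TPM in the M92KO libraries. The first M92KO library lay within the WT range, and the other two lay above it. Fhod1, Fhod3 and Diaph1 together made up 61.9% ± 1.07 of the formin total in WT and 70.4% ± 4.45 in M92KO muscle (SD, n = 3 each), with 65.5% in the first M92KO library. These 3 are the members past the unadjusted threshold in this comparison, so their higher share follows from those values and is not a separate result. The other 11 formins summed to 102.6 ± 2.45 TPM in WT and 97.3 ± 5.35 TPM in M92KO muscle (SD, n = 3 each), and those ranges overlapped. The proportion among the 3 abundant genes differed between M92KO mice, with 1.53 Diaph1 transcripts per Fhod1 transcript in the first M92KO library, 2.29 in the second and 2.09 in the third, against 1.83 to 1.98 in WT. In bulk muscle, a change in the number of cells of a type and a change in the RNA per cell cannot be told apart.

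**Figure D3:**
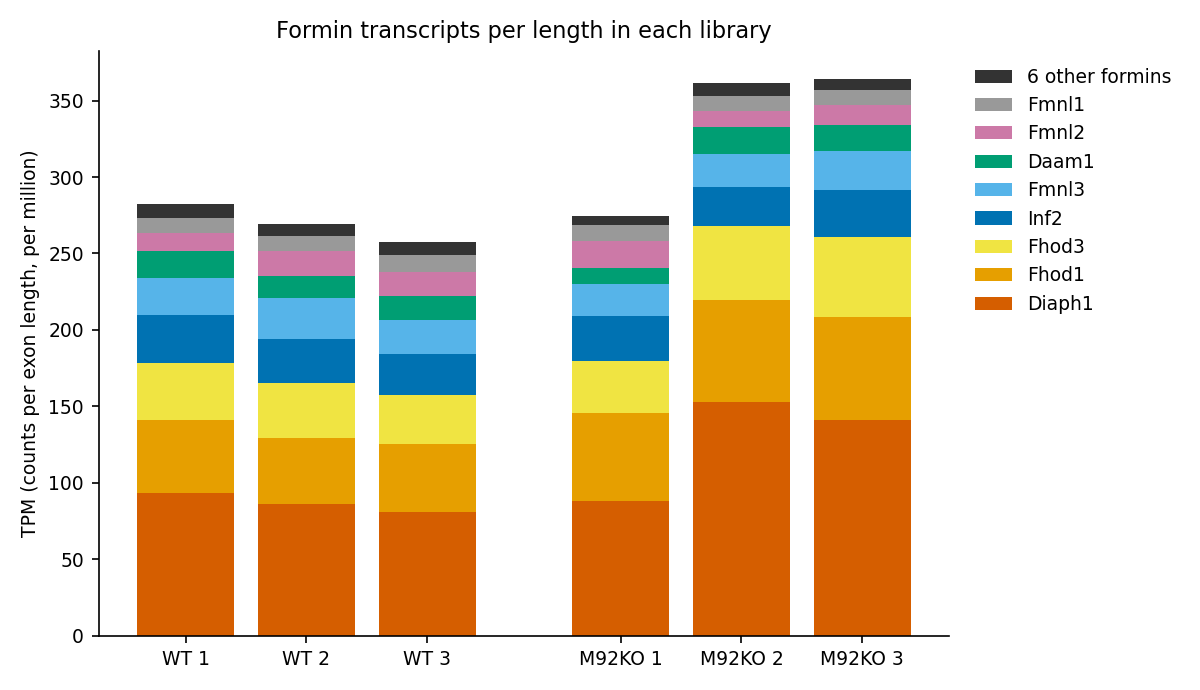
Stacked TPM of the 14 mouse formins in each library, with Diaph1, Fhod1 and Fhod3 at the base. The total stands at 257 to 283 TPM in WT, at 274 TPM in the first M92KO library and at 362 and 364 TPM in the other two, and the bars above Fhod3 sum to between 93.6 and 104.1 TPM in every library.

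The formins outside the members, and the genes that act with or beside formins, were counted in 6 lists of 82 genes, of which 77 were tested. Of these, 13 (16.9%) had an unadjusted p-value under 0.05 in edgeR, 3 higher and 10 lower in M92KO muscle. Among all genes 12.4% passed, 5.47% higher and 6.92% lower. Without the first M92KO library, 11 of the 20 list genes that passed were higher, and with the steps of the supplementary methods 8 of 17, so the split by direction depended on that library and on the processing. Of the 12 formin partners tested, 1 was higher and 0 were lower, with a median log2 fold change of -0.04. The higher gene was Pfn1, which encodes profilin, the protein that hands actin monomers to formins. Pfn1 stood at 104.2, 108 and 112 CPM in WT and at 206, 126 and 143 CPM in M92KO muscle. The groups did not overlap, and the first M92KO library, which was the lowest of its group for Fhod1, Fhod3 and Diaph1, was the highest for Pfn1. The log2 fold change of Pfn1 was 0.55 (SE 0.16, 95% interval 0.19 to 0.92, adjusted p = 0.249 from edgeR), and 0.32 without that library, and it passed the unadjusted threshold in 6 of 6 fits with a library left out. With the quantile normalization and limma steps of the supplementary methods it was 0.50 and did not pass. Abi1 (-0.12) and Baiap2 (0.22) came next by p-value and did not pass the threshold.

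Branched filaments are nucleated by the Arp2/3 complex, and 19 genes of that machinery were tested. The subunit gene Arpc5l was higher by 0.22 on the log2 scale (SE 0.068, adjusted p = 0.267 from edgeR), and 3 genes were lower. These were Wasf2, which encodes a WAVE protein (-0.23, SE 0.074, adjusted p = 0.281 from edgeR), Wipf1, a WASP-interacting protein (-0.38, SE 0.15, adjusted p = 0.369 from edgeR), and the subunit gene Arpc5 (-0.16), which was named after its value was seen. The median over the 19 was -0.02. Arpc5l lost the threshold without the second WT library (0.20), while Wipf1 held it in 2 of 6 fits, those without the third WT or the second M92KO library, and stood at -0.25 without the first M92KO library. Arpc5 held it in 1 of 6, that without the second M92KO library. Of these genes, only Wipf1 (-0.37) lost it with the quantile normalization and limma steps of the supplementary methods.

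Other nucleators of unbranched filaments and the leiomodins, 6 genes tested, included 0 past the threshold in edgeR, and their median was 0.00. Lmod2, a leiomodin of striated muscle thin filaments, ran from 114 to 147 CPM in WT and stood at 93.1, 181 and 246 CPM in M92KO muscle, with the first M92KO library lowest of the 6 and the other two highest. Its log2 fold change was 0.41 (SE 0.29, adjusted p = 0.631 from edgeR), and those of Lmod3 and Jmy were 0.18 and -0.13. The value of Lmod2 was 0.71 without the first M92KO library (adjusted p = 0.0463 from edgeR in that fit), and 0.07 without the third. Lmod3 stood at 0.32 without the first M92KO library, where its unadjusted p-value was under 0.05. Among 21 genes of filament ends and disassembly, Cap2 was higher and Tmod3 lower, with a median of -0.03. Cap2, a muscle cyclase-associated protein that recycles actin monomers, had 318, 292 and 302 CPM in WT and 333, 433 and 435 CPM in M92KO muscle. These groups did not overlap, and the first M92KO library lay nearest to WT. The log2 fold change was 0.40 (SE 0.11, adjusted p = 0.225 from edgeR) and kept the threshold in 6 of 6 fits. Without the first M92KO library it was 0.51 (adjusted p = 0.00602 from edgeR in that fit). Tmod3, a pointed-end capping protein, had a log2 fold change of -0.33 (SE 0.11, adjusted p = 0.288 from edgeR) and lost the threshold without the second WT library (-0.27). Tmod3 also did not pass with the quantile normalization and limma steps of the supplementary methods (-0.33). The cofilin kinase gene Limk1 stood at 0.26 and did not pass in edgeR. With the quantile normalization and limma steps of the supplementary methods Limk1 was 0.30 and passed the unadjusted threshold.

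Actin assembly by formins uses up free actin, which releases the cofactor MRTF to the transcription factor SRF. Of 17 genes for these factors and their classical targets, 3 (Acta2, Tagln and Cnn1) are also in the smooth muscle list below. Among the 17, 0 were higher and 6 lower, with a median of -0.03, beside 5.47% higher and 6.92% lower among all genes. With offsets for GC content and length the same 6 stayed lower and past the threshold, and Vcl was higher (0.21) and passed too. With the quantile normalization and limma steps of the supplementary methods, Zyx (-0.25), Actb (-0.27) and Ccn1 (-0.99) did not pass. Actg1, Tpm4 and Flna still did. With the replicate number as a block, Actb (-0.24) and Ccn1 (-0.98) did not pass. Actg1, which encodes cytoplasmic gamma-actin, had 434, 390 and 432 CPM in WT and 345, 348 and 289 CPM in M92KO muscle. The groups did not overlap, and its log2 fold change was -0.35 (SE 0.092, adjusted p = 0.214 from edgeR). It stayed past the threshold in 6 of 6 fits. Zyx, for the focal adhesion protein zyxin, and Tpm4, a cytoskeletal tropomyosin, both had a log2 fold change of -0.27 (adjusted p = 0.319 and 0.325 from edgeR), and both lost the threshold without the second WT library, at -0.18 for Zyx and -0.22 for Tpm4, while Tpm4 was -0.18 without the first M92KO library. Flna (-0.28), Actb (-0.24) and Ccn1 (-1.32) were named after their values were seen. Ccn1 varied widely among the WT mice, at 35.3, 92.4 and 208 CPM, and stood at 42.5, 52.3 and 39.2 CPM in M92KO muscle. Its groups overlapped, and the first WT library was the lowest of the 6. Flna lost the threshold without the first or the second WT library, and was -0.17 without the first M92KO library. Actb lost it without the first or the third WT library or the third M92KO library (-0.16). Ccn1 lost it without the third WT library or any M92KO library, and Ccn1 stood at -0.51 without the third WT library.

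**Figure D4:**
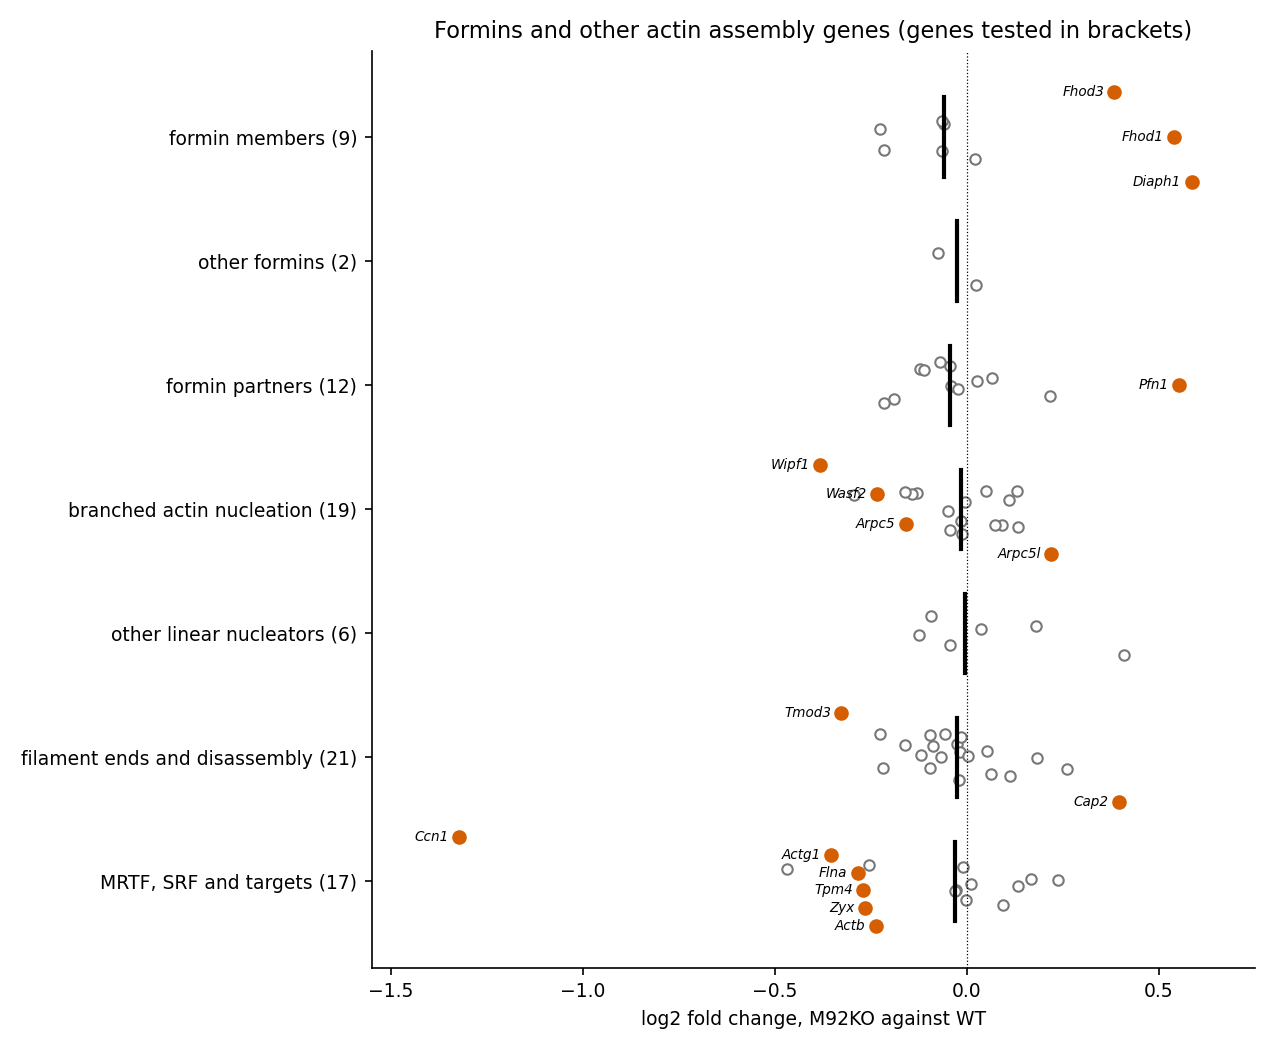
Log2 fold change of M92KO against WT for every tested formin and actin assembly gene, by list, with genes past an unadjusted p-value of 0.05 filled and named and the median of each list as a bar. The medians lie between -0.06 and 0.00, and the genes past the threshold with the highest values are Diaph1, Pfn1, Fhod1, Cap2 and Fhod3, at 0.38 to 0.59.

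Several of these genes are not particular to muscle fibres, and markers of other cell types moved between the same libraries. Markers are counted here at the unadjusted threshold, past which 5.47% of all genes were higher and 6.92% lower. Fibroblast markers, 10 genes, summed to 1794 to 2362 CPM in WT and 1227 to 1687 CPM in M92KO muscle, with 3 lower and a median log2 fold change of -0.26. Of 6 tendon markers 3 were lower (99.7 to 125 CPM in WT, 94.2 to 114 CPM in M92KO). The largest part of the tendon sum was Thbs4 (mean 84.1 CPM in WT, log2 fold change -0.04), which did not pass. Of 8 Schwann cell markers 3 were lower (134.5 to 184 CPM in WT, 134.3 to 141 CPM in M92KO). Of 10 endothelial markers, 2 were lower (1287 to 1338 CPM in WT, 1139 to 1340 CPM in M92KO), and so were 2 of the 10 leukocyte markers. The 8 smooth muscle and pericyte markers gave 1 higher and 1 lower (1189 to 1253 CPM in WT, 1053 to 1197 CPM in M92KO). The 6 satellite cell markers gave 2 higher and 2 lower (69.1 to 92.0 CPM in WT, 83.9 to 92.8 CPM in M92KO). Median log2 fold changes were -0.54 for tendon, -0.23 for Schwann cell, -0.14 for endothelial and -0.13 for leukocyte markers. They were 0.02 for smooth muscle and pericyte, 0.13 for satellite cell and -0.40 for the low cycling-cell markers. Of the 10 skeletal muscle fibre markers 0 passed the threshold in edgeR, with a median of 0.01, and no marker of any list was at 0 in all libraries. The part of these cell types in the values of the formins and of the actin genes was not tested.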

How the data were processed

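Gas muscle RNA of 3 WT and 3 M92KO mice was extracted with an RNeasy kit and made into libraries with a SMARTer kit, per the labels. The authors deposited unnormalized counts of reads on 34714 gene symbols for each library. The labels name GRCm38 (mm10) as the genome build, and the aligner, the counting program and its use of strand are not given in the sources used here.

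The comparison used edgeR 4.0.16 (R 4.3.3). Low genes were removed by filterByExpr (minimum count 10, minimum total count 15), libraries were normalized with TMM, and M92KO was compared with WT by the quasi-likelihood test without a covariate, with Benjamini-Hochberg adjustment over the 15788 genes tested. CPM use TMM-normalized library sizes. The WT libraries summed to 44931338, 38246649 and 48209846 and the M92KO libraries to 34675374, 33160508 and 37019640. Replicates came from separate mice. Positions, exon lengths and 3′-UTRs came from GENCODE M21 (GRCm38), which matched 25731 symbols directly and 424 by a synonym, and all 14 formins among them. TPM were computed here from the counts. miRNA sequences came from RefSeq. Protein sequences were not used here.

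The members and gene lists were chosen with earlier results of these data known. Besides the formins, each list of at least 4 tested genes had its 3 leading genes by p-value named, and others where stated. A further list of genes is not reported here. No test was made on the members or on a list as a whole. The model was checked on simulated data with planted log2 fold changes of 1 and 2 in either direction. At an adjusted p-value under 0.05 from edgeR it found 82 of 105 and 92 of 95 of them, and it called 11 unchanged genes. Changes as small as those of the formins, and a library that stood apart, were not simulated, so the check does not bear on them. Alternatives were DESeq2's size factors, DESeq2's Wald test (1.42.0), the steps of the study's supplementary methods (quantile normalization, log2 of the count plus 1, limma 3.58.1), other filters, offsets for GC content and length (lowess span 0.3, 93.4% of tested genes), the replicate number as a block, and each library left out. Figures were drawn in Python 3.11.15 with matplotlib 3.10.9.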

Additional observations from a re-analysis of the deposited data

How the results depend on the processing

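Fhod1 kept its direction and its side of the threshold in 14 of 14 alternatives. The family was chosen by the p-value of Fhod1 in these same libraries, so nothing is read from this. The members with an unadjusted p-value under 0.05 were 3 under all alternatives with the full set of libraries except the steps of the supplementary methods, which gave 1 (Fhod1), with Diaph1 at 0.50 and Fhod3 at 0.34 past it no longer, and 2 to 4 with a library left out. Genes with an adjusted p-value under 0.05 numbered 0 in edgeR, 322 with DESeq2's Wald test, 42 with the supplementary steps, 6 without a filter and 0 to 401 with a library left out, the highest number without the first M92KO library. All genes past the unadjusted threshold numbered 1955, and 1222 to 2984 with a library left out (1222 without the second WT library, 1272 without the third and 2984 without the first M92KO library). Of the 1955, 863 were higher, against 1244 of 2287 with the supplementary steps and 1545 of 2984 without the first M92KO library. The 13 list genes became 7 to 20 with a library left out, with 7 without the second WT library and 20 (11 higher) without the first M92KO library. The supplementary steps gave 17 list genes, 8 of them higher, against 3 of 13, and ended the call of Pfn1 (0.50). Over the named genes, 373 values kept their side of the threshold, 41 lost it and 6 gained it. Fmnl1, Fmnl2, Fmnl3, Daam1, Inf2 and Fmn1, which did not pass, changed sign in at least 1 fit. The cause of these shifts was not tested.

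Deviations of same-numbered libraries of the genotypes had correlations of 0.0151 to 0.0806, against -0.0686 to 0.0365 for differently numbered libraries. All of these were small, so the numbers were not taken as pairs. With the replicate number as a block, 1691 genes passed the unadjusted threshold, 2 the adjusted one (2 also with the GC and length offsets), and 3 members and 11 list genes differed. Depth limits Diaph3, Fmn2 and Grid2ip most, which had the fewest counts of the formins.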
